A study of Drosophila melanogaster with 18 samples.

Results

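The comparison described here set Drosophila S2 cells engineered to make the transcription factor Twist (gene symbol twi) when copper is added against wild type S2 cells given the same metal. The libraries were chosen by their labels alone: 2 replicates of the Twi line (genotype S2-Twi) and 2 of wild type cells, all at 40 µM CuSO4, which makes 4 of the 18 libraries in the study. S2 is a cell line of embryonic origin with macrophage-like traits. The study as a whole induced 3 factors (Zld, Grh and Twi) in S2 cells, took polyA RNA 48 h after copper was added, and sequenced 2 libraries in each of 9 groups. All 4 libraries compared here received copper, so the metal is shared and the cell line differs. Wild type cells were also sampled at 0, 100 and 1000 µM CuSO4. The Twi line has no group without copper in these data, so what the line carried before induction and what Twist did after it cannot be told apart. The labels do not name the transgene's promoter, nor say whether the line is a single clone and whether its replicates came from separate cultures. Every p-value therefore measures the spread between these libraries, which may be technical.

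Twist is a basic helix-loop-helix protein that binds E-box sequences and stands at the top of the mesoderm programme of the fly embryo. There it switches on genes for mesoderm fate, for the folding of the ventral furrow, and for the FGF receptor Heartless (htl), which mesoderm cells need to spread over the ectoderm. Later it acts in muscle formation, and its vertebrate relatives are known for promoting the epithelial to mesenchymal transition, in which cells change their adhesion and their surrounding matrix.

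The 4 libraries held 19247955 and 23207064 counted reads in the Twi line and 28575923 and 20218223 in wild type, within a series range of 10459648 to 28575923. Levels are given in CPM, reads scaled to a library of 1e6; 3 reads in a library of this series correspond to 0.105 to 0.287 CPM, and such floors cover counting error only. Wild type at 40 µM differed from untreated wild type in 3611 of 8909 genes (40.5%) at an adjusted p under 0.05. The rank correlation over those genes was 0.981 to 0.985 between wild type at 40 and at 100 µM and 0.961 to 0.973 between wild type at 40 µM and untreated. It was 0.975 to 0.98 between Twi and wild type libraries at 40 µM and 0.947 to 0.953 between Twi and untreated wild type. For this reason many genes below are also placed against the range of all 8 wild type libraries. A gene given without such a statement may lie inside that range. The wild type levels of some genes did not run in order of dose. The perlecan gene trol held 358 and 415 CPM untreated, 52.5 and 51.9 CPM at 40 µM, and 400 and 381 CPM at 100 µM. A difference in culture or preparation of the 40 µM libraries cannot be told apart from dose here. The copper response was present in both groups: MtnA, a metallothionein that binds copper, stood at 533 and 570 CPM in the Twi line, 853 and 819 CPM in wild type at 40 µM, and 126 and 52.2 CPM in untreated wild type. Its log2 change between the lines of -0.62 ± 0.33 (SE) did not pass the test (adjusted p = 0.308).

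The twi gene (FBgn0003900; 2R:22985374-23048325, + strand, dm6) stood at 1595 and 1957 CPM in the Twi line. Wild type at 40 µM held 0.245 and 0.346 CPM, and no wild type library exceeded 1.19 CPM. The groups lay far apart, with a log2 difference of 12.54 ± 0.45 (SE; adjusted p = 3.39e-05, edgeR's quasi-likelihood test with Benjamini-Hochberg adjustment over all genes tested). The counts do not separate transcripts of the transgene from those of the chromosomal gene, and 12.2% of the gene's exonic bases are shared with CG9897 and an antisense RNA.

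Among 8909 genes tested, 557 (6.25%) were higher in the Twi line and 380 (4.27%) were lower at an adjusted p under 0.05. The increases were the larger: their median size was 1.37 on the log2 scale against 0.62 for the decreases, and 353 genes (3.96%) rose at least 2-fold whereas 130 (1.46%) fell at least 2-fold. Of the genes that rose, 155 had a mean below 1 CPM in wild type at 40 µM. All 937 called genes had CPM values that did not overlap between the 2 groups, as did 50.3% of all genes tested. Both Twi libraries lay outside the range of all 8 wild type libraries for 440 of the 557 higher and 255 of the 380 lower genes. Over all genes tested, that held for 12.8% (above) and 9.88% (below), and the counts are read beside that background. Removing any of the 6 libraries in the fit kept 255 of the higher and 106 of the lower calls in every case. Without replicate 1 of the Twi line 295 genes were higher and 129 lower, and without replicate 2 the counts were 315 and 156. Without replicate 1 or 2 of untreated wild type they were 396 and 173, or 388 and 169. Without replicate 1 or 2 of wild type at 40 µM they were 580 and 567, or 710 and 548.

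**Figure D1:**
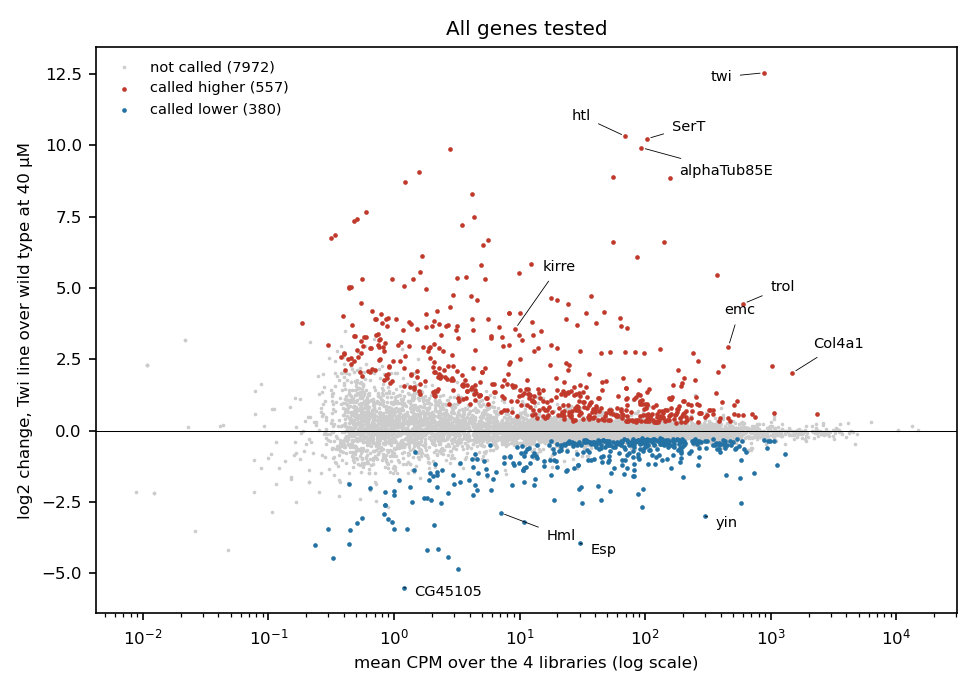
Log2 change in the Twi line over wild type at 40 µM CuSO4 (vertical axis) against the mean CPM of the 4 libraries (log axis) for the 8909 genes tested. Red points are the 557 genes called higher and blue points the 380 called lower; increases reach far larger sizes than decreases, with twi at 12.54.

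The largest increases joined the FGF receptor to a mixed set of genes that wild type cells barely transcribed. Leaving twi aside, the 15 largest ran from 6.61 to 10.31 on the log2 scale, all 15 lay above all 8 wild type libraries, and all 15 calls survived the removal of each library. htl (3R:18045216-18052984, - strand) stood at 155 and 124 CPM in the Twi line against 0.175 and 0 CPM in wild type at 40 µM. Its log2 change was 10.31 ± 0.41 (SE; adjusted p = 4.29e-05), and its highest wild type library anywhere in the series held 1.67 CPM. SerT, the plasma membrane serotonin transporter, stood at 226 and 187 CPM against 0.14 and 0.198 CPM, a log2 change of 10.22 ± 0.32. For both genes the 2 Twi libraries lay above 100 CPM and the 2 groups did not come near each other.

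alphaTub85E, a tissue-restricted alpha-tubulin, stood at 187 and 186 CPM in the Twi line and at 0.21 and 0.148 CPM in wild type, a log2 change of 9.92 ± 0.29 (adjusted p = 1.61e-05). It was the only tubulin gene of 9 tested that was called higher. The major isoforms alphaTub84B (log2 change -0.11 ± 0.11) and betaTub56D (0.12 ± 0.15) did not pass the test, and betaTub97EF fell from 1.26 and 1.68 CPM to 0.208 and 0.172 CPM. betaTub60D, a beta-tubulin of the embryonic mesoderm, had a log2 change of -0.21 ± 0.09 (adjusted p = 0.213).

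Several of the remaining genes among the largest increases encode surface or secreted proteins or transporters. wrapper, which encodes an immunoglobulin-family protein of midline glia, stood at 6.13 and 4.96 CPM with no read in wild type at 40 µM, which makes it at least 89.3-fold higher against a floor of 3 reads over the group. prt, a vesicular transporter, was at least 19.2-fold higher on the same basis. CCHa2-R, a neuropeptide receptor, stood at 6.91 and 6.85 CPM against 0.07 and 0 CPM. GstE1, a glutathione S-transferase, stood at 10.9 and 11.4 CPM against 0.105 and 0.0989 CPM. These genes had in common a wild type level at or below 1.44 CPM in all 8 libraries.

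nvy, which encodes the fly relative of the ETO family of transcriptional co-repressors, differed in that it was measurable in wild type: 3.81 and 1.53 CPM at 40 µM against 283 and 274 CPM in the Twi line. Its log2 change was 6.61 ± 0.29. Of the 15 genes, 5 carry only a CG number in the reference annotation. CG9416 stood at 135 and 85.1 CPM against 0.21 and 0.247 CPM, and CG9593 at 352 and 281 CPM against 0.595 and 0.791 CPM. For CG9593, 50.6% of exonic bases are shared with the antisense RNA asRNA:CR45891, and because the library kit does not keep strand those reads cannot be assigned. The same holds for 37.5% of CG15529.

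**Figure D2:**
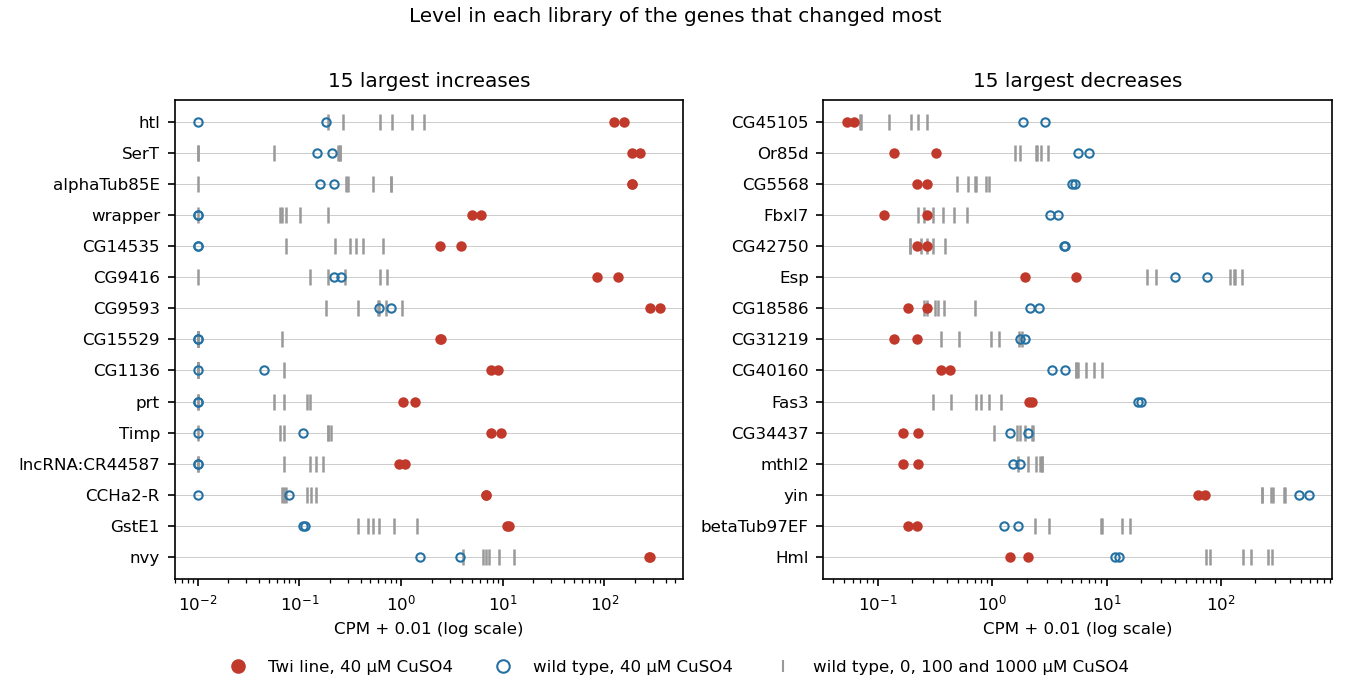
CPM plus 0.01 on a log axis for the 15 genes with the largest increases (left) and the 15 with the largest decreases (right). Filled red circles are the 2 Twi libraries, open blue circles the 2 wild type libraries at 40 µM, and grey ticks the 6 wild type libraries at 0, 100 and 1000 µM; on the left the red circles lie to the right of every wild type library, on the right some grey ticks coincide with the red circles.

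The largest decreases were smaller and fell into 2 kinds. In 11 of the 15, of which CG45105 rests on too few reads to place, both Twi libraries lay below all 8 wild type libraries. In the other 4 (Fbxl7, CG42750, CG18586 and Fas3) they did not both do so. Both Twi libraries lay within the wild type range for CG42750 and Fas3. For Fbxl7 replicate 1 of the Twi line (0.104 CPM) lay below all 8, and for CG18586 replicate 2 (0.172 CPM) did. Fas3, the homophilic adhesion molecule Fasciclin III, is 1 of those 4. It stood at 2.23 and 2.07 CPM in the Twi line and 19 and 20.1 CPM in wild type at 40 µM, but at 0.918 and 0.29 CPM in untreated wild type. The log2 change was -3.20 ± 0.27 against wild type at 40 µM and 1.83 against untreated wild type, so its direction turned with the control. CG42750 showed the same shape, with 0.208 and 0.259 CPM in the Twi line, 4.3 and 4.2 CPM in wild type at 40 µM, and 0.378 and 0.29 CPM in untreated wild type.

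yin, an oligopeptide transporter, stood at 63.3 and 72.2 CPM in the Twi line against 589 and 481 CPM at 40 µM, and no wild type library fell below 228 CPM. It was 8.02-fold lower (SE 0.12 on the log2 scale; adjusted p = 3.39e-05). Esp stood at 1.92 and 5.39 CPM against 74.9 and 39.4 CPM, with a wild type minimum of 22.4 CPM and a log2 change of -3.96 ± 0.45. Or85d, an odorant receptor gene, stood at 0.312 and 0.129 CPM against 5.63 and 6.97 CPM. CG45105 had the largest ratio, 51.8 with a 95% exact counting interval of 14.0 to 432, but its median over all 8 wild type libraries was also low, at 0.2 CPM. It had 2 reads over both Twi libraries, under the floor of 3 reads, and 0.0607 and 0.0602 CPM in wild type at 1000 µM against 0.052 and 0.0431 CPM in the Twi line, so its place below all 8 is not detectable at this depth. CG31219 was lost as a call without either Twi library, and CG18586 without replicate 2 of the Twi line.

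By length-scaled abundance (TPM, computed here from counts and deposited gene lengths), the largest rises were in abundant transcripts. Col4a1, a chain of type IV collagen, went from 182 to 759 TPM on average. miple2, a secreted protein of the midkine and pleiotrophin family, went from 182 to 895 TPM, and CG9593 from 1.06 to 489 TPM. emc went from 99.1 to 779 TPM. It encodes a helix-loop-helix protein without the basic region, which binds basic helix-loop-helix partners and keeps them off DNA; it stood at 850 and 776 CPM in the Twi line and between 79.5 and 201 CPM in wild type, with a log2 change of 2.93 ± 0.14 (adjusted p = 6.22e-05). His2Av, the H2A.Z-type variant histone, went from 556 to 1169 TPM, a change that lost its call without replicate 1 of the Twi line.

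The largest falls in TPM were in yin (316 to 40.6 TPM), CG1092 (1387 to 511 TPM), the neuropeptide-like precursor gene Nplp2 (950 to 317 TPM), Glt (889 to 399 TPM) and Argk1 (476 to 156 TPM). Argk1 encodes arginine kinase, the phosphagen kinase of insect muscle and other tissues. It stood at 258 and 300 CPM in the Twi line, and no wild type library held less than 665 CPM. Nplp2 and Glt, the secreted glycoprotein Glutactin, each lost the call when either Twi library or either untreated wild type library was removed; CG1092 lost it without replicate 2 of the Twi line. Both Nplp2 and Glt were already lower in wild type at 40 µM (401 and 198 CPM, and 1952 and 1149 CPM) than in untreated wild type (1829 and 1727 CPM, and 4331 and 4431 CPM).

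The counts for each gene list below stand beside the shares over all genes tested, of which 6.25% were called higher and 4.27% lower, with a median log2 change of -0.002. Most lists hold few genes, so a share rests on a handful of calls. Of 22 genes of mesoderm specification and gastrulation other than twi 15 were tested, 2 rose (13.3%) and 2 fell (13.3%), and their median log2 change was -0.11. T48, which encodes a transmembrane protein that recruits RhoGEF2 during apical constriction of the ventral furrow, rose from 5.74 and 9.4 CPM to 54 and 51.6 CPM, above every wild type library (log2 change 2.80 ± 0.22, adjusted p = 0.000429). Traf4, an adaptor protein at adherens junctions of the furrow, rose from 51.6 and 62.9 CPM to 171 and 145 CPM. fog, the secreted ligand that acts beside T48 in apical constriction, fell from 130 and 137 CPM to 81.6 and 87.3 CPM (log2 change -0.68 ± 0.07). The other member that fell, Cyp310a1, kept its call in 1 of 6 removals. T48 and fog, which meet in the same step of furrow formation, therefore moved in opposite directions.

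The transcription factors that follow twi in the embryo were not among the genes that rose. Mef2, the myogenic MADS-box factor, stood at 74.7 and 77.3 CPM in the Twi line and at 79.4 and 83.3 CPM in wild type. zfh1, a zinc-finger homeodomain factor of mesoderm and blood, stood at 245 and 230 CPM against 347 and 248 CPM. tin, the NK-family factor of dorsal mesoderm and heart, stood at 0.623 and 1.03 CPM against 0.315 and 0.495 CPM. None passed the test (adjusted p = 0.345, 0.206 and 0.213). sna, the zinc-finger repressor that acts beside Twist in the ventral furrow, had 0 and 1 reads in the Twi libraries and 0 in both wild type libraries at 40 µM, which is too few to test.

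FGF signalling genes showed 2 increases among 8 tested (25.0%, beside 6.25% of all genes), with a median log2 change of 0.26 beside -0.002. Besides the receptor htl, its ligand gene pyr rose from 17.2 and 24.6 CPM to 43.1 and 51.9 CPM (log2 change 1.17 ± 0.18, adjusted p = 0.00699). The other Heartless ligand gene, ths, stood at 0.675 and 0.689 CPM against 0.21 and 0.445 CPM and did not pass the test (adjusted p = 0.223). The intracellular adaptor stumps, which Heartless needs, had 4 and 11 reads in the Twi libraries and 13 and 10 in wild type, and the other FGF receptor gene btl had 12 and 10 reads against 12 and 6. Both were below the filter. The nuclear effector pnt (log2 change 0.04 ± 0.09) and the feedback inhibitor sty (0.22 ± 0.10) did not pass the test.

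Myoblast fusion genes included 4 increases (28.6%, beside 6.25% of all genes) and 1 decrease (7.14%, beside 4.27%) among 14 tested. kirre, the adhesion receptor of muscle founder cells, rose from 0.98 and 1.93 CPM to 18.8 and 15.2 CPM, above every wild type library (log2 change 3.56 ± 0.30, adjusted p = 0.000573). Its partner on fusion-competent cells, sns, stood at 1.14 and 1.16 CPM against 0.035 and 0.297 CPM, a call at adjusted p = 0.0454 that held in 1 of 6 removals. rols, a founder cell adaptor, was higher than in wild type at 40 µM (11.1 and 9.61 CPM against 5.35 and 3.81 CPM) but lower than in untreated wild type (17.6 and 17.8 CPM), and its call was lost without replicate 1 of the Twi line. blow, an actin regulator of the fusion site, fell from 147 and 156 CPM to 95.2 and 102 CPM.

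Muscle structure genes went both ways, with 3 higher (18.8%, beside 6.25% of all genes) and 4 lower (25.0%, beside 4.27%) among 16 tested, and 11 more below the filter. Act87E, a muscle actin, rose from 0.91 and 0.841 CPM to 19 and 12.2 CPM (log2 change 4.12 ± 0.31, adjusted p = 0.00036). Mlp60A, a muscle LIM protein of the Z-disc, rose from 0.385 and 0.346 CPM to 5.61 and 4.35 CPM. how, an RNA-binding protein of muscle and tendon, rose from 90.6 and 104 CPM to 212 and 219 CPM. All 3 lay above every wild type library.

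The 4 muscle structure genes that fell were Argk1, the Z-disc scaffold gene Zasp52, the titin-like sls (a call lost without replicate 2 of the Twi line) and the giant spectrin-repeat gene Msp300. Zasp52 fell from 196 and 202 CPM to 101 and 99.7 CPM, below every wild type library. Msp300 was lower than in wild type at 40 µM (347 and 356 CPM against 492 and 486 CPM) and higher than in untreated wild type (141 and 137 CPM). Muscle myosin heavy chain, Mhc, had 2 and 9 reads in the Twi libraries and 3 and 2 in wild type; Act57B had 7 and 4 against 7 and 4; Tm2 had 0 and 1 against 4 and 0. The structural genes most used as muscle markers were therefore near zero in both groups. Of 18 muscle identity factors 5 were tested, and none of the 5 passed the test.

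**Figure D3:**
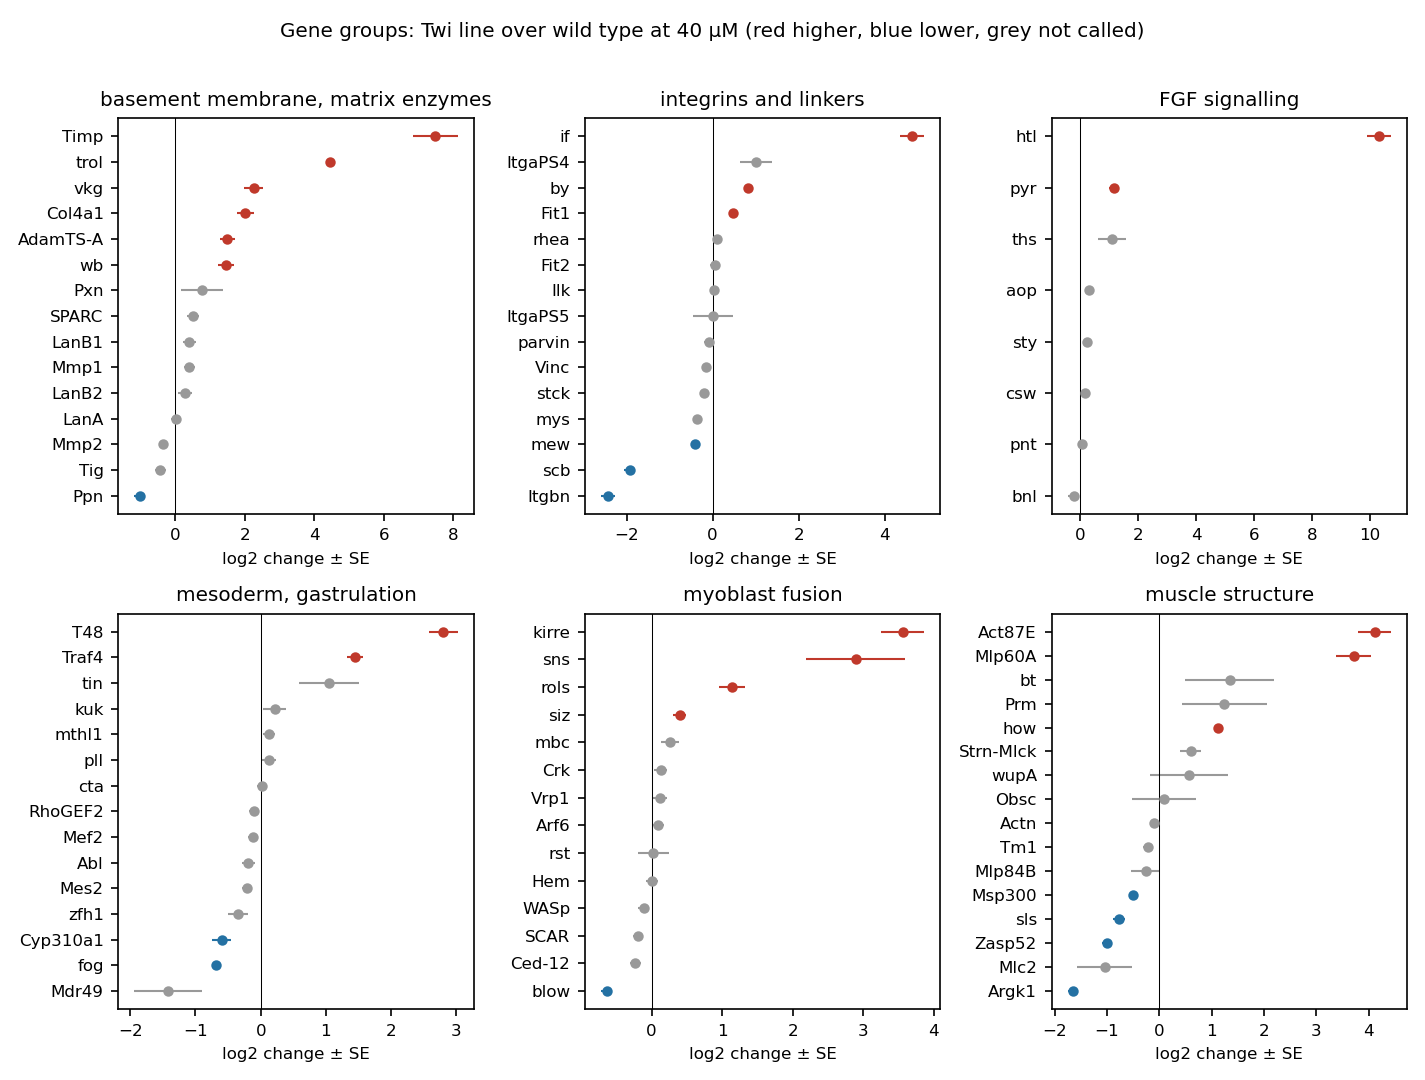
Log2 change in the Twi line over wild type at 40 µM CuSO4 with SE (horizontal axis) for each tested gene of 6 lists. Red points were called higher, blue lower and grey not called; the basement membrane panel holds 6 red points, and the FGF panel is set by htl at 10.31.

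Of 15 tested basement membrane and matrix genes 6 were higher (40.0%, beside 6.25% of all genes) and 1 was lower (6.67%, beside 4.27%), with a median log2 change of 0.50 beside -0.002 for all genes tested. The 2 chains of type IV collagen rose together: Col4a1 stood at 2740 and 2028 CPM in the Twi line against 705 and 458 CPM, and vkg at 1956 and 1436 CPM against 434 and 265 CPM. Their log2 changes were 2.02 ± 0.25 (adjusted p = 0.00318) and 2.26 ± 0.27 (adjusted p = 0.00276). These genes form a head-to-head pair on 2L. Both were already higher in wild type at 40 µM than in untreated wild type, where Col4a1 stood at 116 and 146 CPM and vkg at 81.5 and 101 CPM, and the Twi line lay above all of these.

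trol, the perlecan of the fly, stood at 1203 and 1104 CPM in the Twi line and 52.5 and 51.9 CPM in wild type given 40 µM. Its log2 change came to 4.44 ± 0.12 (adjusted p = 1.61e-05). The other 6 wild type libraries lay above those at 40 µM, with 358 and 415 CPM when untreated, and the Twi line lay above all 8. Against untreated wild type the log2 change of trol was 1.61. Timp, the inhibitor of matrix metalloproteinases, stood at 9.61 and 7.63 CPM against 0 and 0.0989 CPM, a ratio of 208 with a 95% exact counting interval of 57.2 to 1724. It lies inside the Syn gene and shares 15.7% of its exonic bases with it. AdamTS-A, a secreted protease, rose from 27.2 and 45.7 CPM to 110 and 98.5 CPM.

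The laminin genes did not join them: LanA stood at 3363 and 3207 CPM against 3640 and 2755 CPM (log2 change 0.02 ± 0.13), and LanB1 and LanB2 did not pass the test either. SPARC, a collagen IV-binding protein, had a log2 change of 0.50 ± 0.18 (adjusted p = 0.136), and the metalloproteinase genes Mmp1 and Mmp2 had values of 0.40 ± 0.15 and -0.37 ± 0.11 that did not pass. Ppn, papilin, was lower than in wild type at 40 µM (38.7 and 48.1 CPM against 82.6 and 91.3 CPM) and close to untreated wild type (41.9 and 53.9 CPM). Summed over the list, the level was 11686 and 14122 CPM in the Twi line, 6298 and 8938 CPM in wild type at 40 µM, and 11387 to 11927 CPM in untreated wild type.

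The integrins and their linkers, which tie cells to that matrix, went both ways, with 3 of 15 tested genes higher and 3 lower, beside 6.25% and 4.27% of all genes. if, the alphaPS2 integrin of muscle, rose from 1.75 and 0.841 CPM to 37.6 and 30.8 CPM, above every wild type library (log2 change 4.64 ± 0.28, adjusted p = 0.000154). scb, the alphaPS3 integrin, fell from 64 and 68.7 CPM to 15.1 and 20.1 CPM, and Itgbn, the beta-nu integrin of phagocytes, from 27.2 and 36.7 CPM to 5.61 and 6.38 CPM. mew, the alphaPS1 integrin, was lower with a log2 change of -0.41 ± 0.07 that kept its call in 2 of 6 removals. The common beta subunit gene mys stood at 406 and 406 CPM against 472 and 551 CPM and did not pass the test (adjusted p = 0.0548). Among the linkers, by (tensin) rose by 0.82 ± 0.10 on the log2 scale, while rhea (talin), Ilk and Vinc did not pass.

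Cell adhesion genes outside the integrins gave 1 increase (5.88%, near the 6.25% of all genes) and 3 decreases (17.6%, beside 4.27%) among 17 tested. Fas1, the adhesion molecule Fasciclin I, rose from 9.73 and 17.6 CPM to 102 and 81.1 CPM (log2 change 2.74 ± 0.28). Ten-a, a teneurin, fell from 147 and 140 CPM to 27.7 and 34 CPM, below every wild type library (log2 change -2.24 ± 0.10, adjusted p = 5.19e-05). The pair of genes whose exchange is the textbook sign of mesoderm formation did not pass the test: shg, the E-cadherin, had a log2 change of 0.33 ± 0.13 (adjusted p = 0.157), and CadN, the N-cadherin, had -1.16 ± 0.38 (adjusted p = 0.106).

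Septate junction genes, which seal epithelia, stood below wild type at 40 µM as a group by small amounts: 10 of 17 were lower (58.8%, beside 4.27% of all genes), none was higher, and the median log2 change was -0.38. cora fell from 667 and 658 CPM to 455 and 466 CPM and Lac from 160 and 173 CPM to 85.4 and 102 CPM, both below every wild type library. Those 2 and vari were the members that kept their call in all 6 removals, and the others lost it when at least 1 Twi or untreated library was left out. Of the 10, 6 lay below all 8 wild type libraries, and vari turned to a log2 change of 0.14 against untreated wild type.

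Markers of plasmatocytes, the macrophage-like blood cells that S2 cells resemble, gave 3 increases (17.6%, beside 6.25% of all genes) and 5 decreases (29.4%, beside 4.27%) among 17 tested, with a median log2 change of -0.32 beside -0.002. Hml, hemolectin, fell from 12.9 and 11.8 CPM to 2.03 and 1.42 CPM (log2 change -2.88 ± 0.19, adjusted p = 0.000204). The wild type level of this gene ran from 11.8 to 278 CPM over the 8 libraries, lowest at 40 µM, so the larger part of the distance to untreated cells (156 and 184 CPM) was present in wild type at this dose too. Sr-CI, a scavenger receptor, followed the same course, with 57 and 50.9 CPM untreated, 1.15 and 1.63 CPM in wild type at 40 µM, and 0.416 and 0.215 CPM in the Twi line; its call was lost without replicate 2 of the Twi line. eater, a phagocytosis receptor, fell from 45.7 and 31 CPM to 15 and 16.2 CPM.

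Hml, Sr-CI and eater were among the 5 plasmatocyte genes that fell. The genes named next were higher or did not pass the test. Tep2, a thioester protein that binds microbes, rose from 305 and 239 CPM to 607 and 488 CPM, and drpr, the receptor for dying cells, rose from 163 and 154 CPM to 326 and 276 CPM, close to its untreated level of 289 and 286 CPM. srp, the GATA factor of blood and fat body, stood at 371 and 336 CPM against 486 and 385 CPM, and crq, a CD36-family receptor, at 300 and 317 CPM against 334 and 330 CPM; neither passed the test. In bulk RNA, fewer cells of a type and less RNA per cell cannot be told apart.

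**Figure D4:**
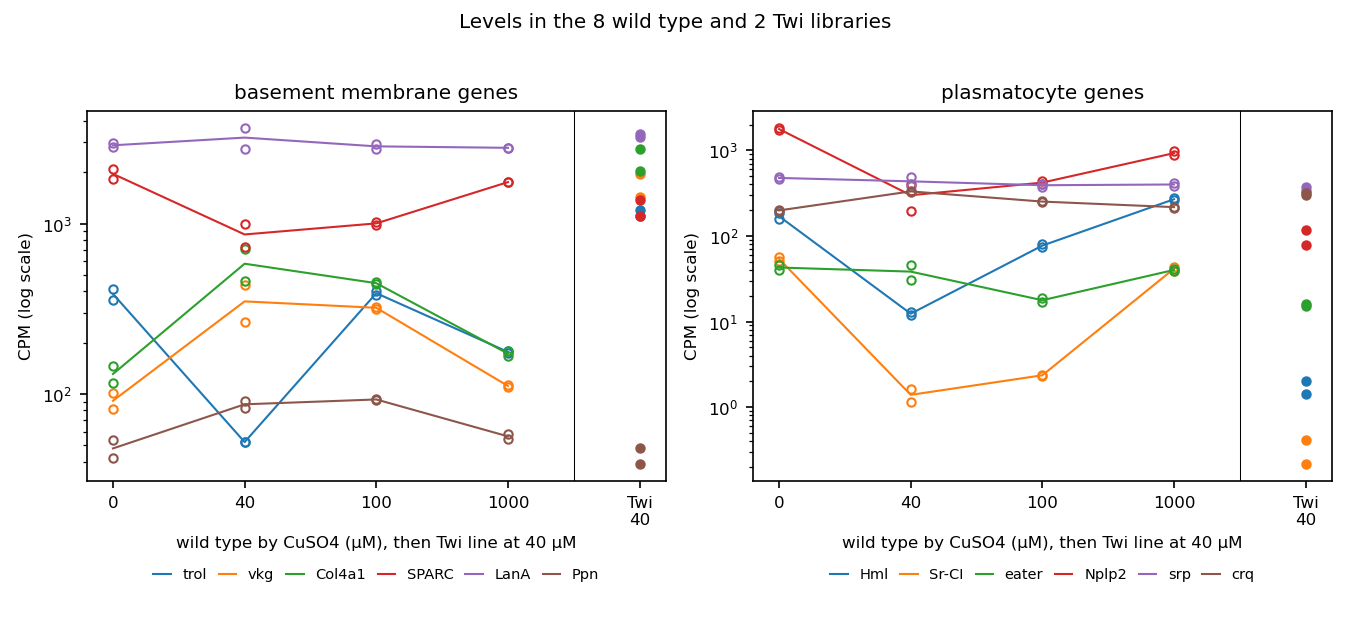
CPM on a log axis for 6 basement membrane genes (left) and 6 plasmatocyte genes (right) in wild type at 0, 40, 100 and 1000 µM CuSO4 (open circles, line through the means of 2 libraries) and in the Twi line at 40 µM (filled circles). trol and Hml dip at 40 µM in wild type; Col4a1, vkg and trol are highest in the Twi line, and Hml and Sr-CI lowest.

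Guidance genes gave 2 increases (12.5%, beside 6.25% of all genes) and 4 decreases (25.0%, beside 4.27%) among 16 tested. sli, the secreted repellent Slit, fell from 869 and 1120 CPM to 165 and 180 CPM, and no wild type library held less than 831 CPM (log2 change -2.55 ± 0.13, adjusted p = 6.59e-05). NetA, a netrin, fell from 5.32 and 3.46 CPM to 0.935 and 1.03 CPM. The netrin receptor genes went the other way: fra rose from 160 and 213 CPM to 344 and 361 CPM and unc-5 from 262 and 255 CPM to 444 and 428 CPM. Both receptor genes lay above every wild type library.

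In the Dpp/BMP list, 3 of 15 tested genes were higher, beside 6.25% of all genes, and 2 lower (13.3%, beside 4.27%). The rises were led by tok and tld, neighbouring genes for related secreted proteases that cut BMP inhibitors. tok rose from 2.66 and 1.43 CPM to 54.8 and 37.6 CPM (log2 change 4.43 ± 0.31, adjusted p = 0.000319), and tld from 0 and 0.0495 CPM to 1.3 and 0.862 CPM, a call lost without replicate 1 of the Twi line. The receptors tkv and put and the effector Mad did not pass the test. In the Wingless list fz, the Frizzled receptor, rose from 7.91 and 6.87 CPM to 18.8 and 22.7 CPM, and arr and nkd were also higher among 11 tested, with calls lost without replicate 2 of the Twi line (and, for arr, without replicate 1). The Twi level of nkd, 19.4 and 24.7 CPM, lay within the wild type range, with 21.6 and 22.2 CPM in untreated wild type.

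In the Notch list 1 of 13 tested genes was higher (7.69%, near the 6.25% of all genes) and 3 were lower (23.1%, beside 4.27%). The Enhancer of split target E(spl)mbeta-HLH fell from 25.7 and 20.9 CPM to 11.8 and 11.5 CPM. Of 13 EGF receptor pathway genes 2 were lower (15.4%), the ligand gene spi, whose call was lost without replicate 2 of the Twi line or either untreated library, and the secreted inhibitor aos. aos stood at 44.4 and 36.8 CPM in the Twi line, 84 and 157 CPM in wild type at 40 µM, and 10.9 and 13.5 CPM in untreated wild type. Its direction thus depended on the control, and without either Twi library its call was lost. The cell death gene rpr fell from 9.94 and 17.7 CPM to 2.86 and 4.48 CPM, a call lost without replicate 1 of the Twi line.

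Among immune genes 2 of 14 tested were higher (14.3%, beside 6.25% of all genes) and 4 lower (28.6%, beside 4.27%). Of those 4, PGRP-SA and spz changed sign against untreated wild type, with log2 changes of 1.39 and 0.049. The call of PGRP-SA was lost without replicate 1 of the Twi line, and that of spz without replicate 2 of the Twi line or replicate 1 of untreated wild type. The Toll pathway inhibitor cact rose from 100 and 107 CPM to 174 and 161 CPM, and the antimicrobial peptide gene CecC fell from 5.91 and 4.45 CPM to 1.92 and 1.16 CPM, a call lost without replicate 2 of the Twi line. br, an ecdysone-response transcription factor gene, fell from 35.6 and 37.5 CPM to 19.3 and 22.6 CPM, and it too lay below every wild type library.

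General cell functions gave no calls. None of 25 tested genes of DNA replication and the cell cycle, 19 heat shock and chaperone genes, 86 cytosolic ribosomal protein genes and 8 JAK/STAT genes passed edgeR's test. At an unadjusted p under 0.05 the counts were 3, 0, 11 and 0, beside 25.7% of all genes tested. Their median log2 changes were -0.02, 0.27, -0.08 and 0.03. Several heat shock genes differed widely between replicates of both groups, which limits what the absence of calls says for that list. Hsp68 stood at 165 and 803 CPM in the Twi line and at 127 and 561 CPM in wild type at 40 µM. Of 8 neuron and neuroblast genes none passed, with 2 (25.0%) at an unadjusted p under 0.05, near the share over all genes. Marker sets of cell types were also summed, and each range is given for the Twi line first and then for the 40 µM wild type. The 8 plasmatocyte markers summed to 1023 to 1362 CPM against 897 to 1335 CPM, with 3 called lower and none higher. Among them Pxn stood at 672 and 350 CPM against 453 and 134 CPM. The 5 mesoderm markers other than twi summed to 355 to 400 CPM against 249 to 348 CPM, with 1 of 3 tested called higher (htl). The 4 lamellocyte markers summed to 1482 to 1570 CPM against 1292 to 1387 CPM, with 1 of 3 tested called higher (msn). The 8 muscle markers summed to 91.6 to 92.9 CPM against 103 to 110 CPM, with 1 of 4 tested called lower. The 3 glia markers summed to 126 to 135 CPM against 159 to 172 CPM, with wrapper higher and moody lower, and the call of moody was lost without replicate 1 of the Twi line or replicate 2 of untreated wild type. Neuron markers summed to 29.9 to 37.3 CPM against 22.7 to 36.3 CPM and crystal cell markers to 12.6 to 13.7 CPM against 9.3 to 10.0 CPM, with no member called. The 4 fat body markers, none of which passed the filter, summed to 0.603 to 3.22 CPM against 0.14 to 0.198 CPM. Epidermis markers summed to 1.87 to 2.24 CPM against 1.33 to 2.28 CPM, and germline markers to 3.88 to 4.68 CPM against 2.37 to 5.56 CPM. No marker had 0 reads in all 4 libraries, and the part of these cell types in the results above was not tested.

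Some genes raised in the Twi line lay next to each other on the chromosome. Of 981 tested genes whose bodies came within 10000 bases of a gene raised at least 2-fold, 97 (9.89%) were themselves raised at least 2-fold, compared with 3.96% of all tested genes; twi and pairs that share exonic bases were left out. Near genes lowered at least 2-fold, 22 of 340 (6.47%) were lowered, compared with 1.46% of all. wrapper (2R:22379637-22382675, + strand) lies 458 bases from CG13506 (log2 change 5.32). alphaTub85E (3R:9731221-9733250, - strand) lies 348 bases from FoxP, which encodes a forkhead factor and rose by 4.48 on the log2 scale.

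Around nvy (2R:24275734-24291084, + strand) the neighbours CG13577 and Fatp3 rose by 6.11 and 2.39, and farther along CG3376 and CG13575 rose by 2.42 and 7.35. tok (3R:24719697-24749125) is followed after 605 bases by tld. Among decreases, CG45105 (3R:15910372-15918007, - strand) and Fbxl7 lie 2890 bases apart. These shares are a description with no test.

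Whether a change belonged to the Twi comparison was judged from the difference between factor effects, fitted on all 18 libraries. Each effect sets an induced line against wild type, so it includes what the line carried before induction. The Zld and Grh effects are the induced line against wild type at the same printed copper number, 1000 and 100; the labels print those doses in mM for the lines and in µM for wild type, and they differ from the 40 µM used here. The Twi effect differed from the Zld effect in 2011 of 9521 genes (21.1%) and from the Grh effect in 3820 (40.1%). Of the 557 genes higher in the Twi line, 288 differed from both other effects, and of the 380 lower genes 150 did. Among the 15 largest increases, 10 differed from both. These genes were picked on libraries that also enter the difference, so such counts were partly set by the choice. The share of all tested genes that differed from both was not computed, so no conclusion is drawn from these counts.

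alphaTub85E had a Twi effect of 9.90 ± 0.26 (log2, SE) in that fit, beside -0.55 ± 0.55 for Zld and -0.43 ± 0.71 for Grh. Both differences passed the test (adjusted p = 8.34e-08 and 7.57e-07). htl had 10.29 ± 0.38 beside 2.70 ± 0.40 and 0.77 ± 0.97, and both differences passed (adjusted p = 2.21e-05 and 0.000364). SerT had 10.21 ± 0.28 beside 1.12 ± 0.76 and 4.73 ± 0.98. Its difference from Zld passed (adjusted p = 0.000158) and its difference from Grh did not (adjusted p = 0.166). The induced Grh line held 0.988 and 0.619 CPM of SerT and wild type at 100 µM 0 and 0.0458 CPM. Those wild type levels lie under 3 reads per library, so the Grh effect of SerT is poorly measured. The missed call therefore does not show a like rise with Grh. The collagen genes were higher in the Twi line and lower in the induced Zld and Grh lines, each against its own wild type control. Col4a1 had 2.01 ± 0.21 beside -1.11 ± 0.22 and -2.20 ± 0.22, and vkg had 2.25 ± 0.22 beside -1.05 ± 0.24 and -2.11 ± 0.23. The Grh line held 97.7 and 83.5 CPM of Col4a1 when induced and 68.7 and 76.9 CPM without copper. Wild type at 100 µM held 442 and 452 CPM. In the Zld line Col4a1 stood at 75.9 and 75.1 CPM when induced and 136 and 166 CPM without copper. All 4 collagen differences passed the test (adjusted p = 1.93e-05 and 6.55e-07 for Col4a1, 1.99e-05 and 7.72e-07 for vkg). if, the alphaPS2 integrin gene, had 4.62 ± 0.26 beside -0.42 ± 0.25 with Zld, and its difference from Grh was 5.62 (adjusted p = 1.23e-08). emc had 2.92 ± 0.11 beside 0.65 ± 0.11 and -0.98 ± 0.11. kirre had 3.56 ± 0.25 with Twi, 1.03 ± 0.38 with Zld and 2.14 ± 0.24 with Grh, and the Twi effect exceeded both (adjusted p = 0.00107 and 0.00383).

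For other genes the difference from 1 of the factors did not pass the test. T48 had 2.80 ± 0.19 with Twi and 2.52 ± 0.20 with Zld, a difference of 0.28 that did not pass the test (adjusted p = 0.522), while its Grh effect was 0.14 ± 0.19. yin had -3.01 ± 0.09 with Twi and -3.06 ± 0.10 with Zld (adjusted p = 0.821) but 1.22 ± 0.09 with Grh. In the Zld line yin stood at 26.7 and 24.8 CPM when induced and at 136 and 138 CPM without copper. Untreated wild type held 363 and 360 CPM of yin. Argk1 had -1.66 ± 0.10 with Twi and -1.81 ± 0.10 with Grh (adjusted p = 0.409), and -3.45 ± 0.11 with Zld. In the Grh line Argk1 stood at 190 and 171 CPM when induced and already at 208 and 252 CPM without copper. Hml was lower in all 3 comparisons, with effects of -2.89 ± 0.18, -1.83 ± 0.10 and -1.80 ± 0.11, and the Twi effect was the more negative in both tests (adjusted p = 0.00184 and 0.000839). In the Grh line Hml stood at 19.1 and 22.3 CPM when induced and already at 35 and 38.9 CPM without copper. The Zld line held 66 and 76.9 CPM of Hml when induced and 134 and 130 CPM without copper. Untreated wild type held 156 and 184 CPM. scb had -1.94 ± 0.10 with Twi and positive effects of 0.87 ± 0.09 and 1.93 ± 0.09 with Zld and Grh.

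**Figure D5:**
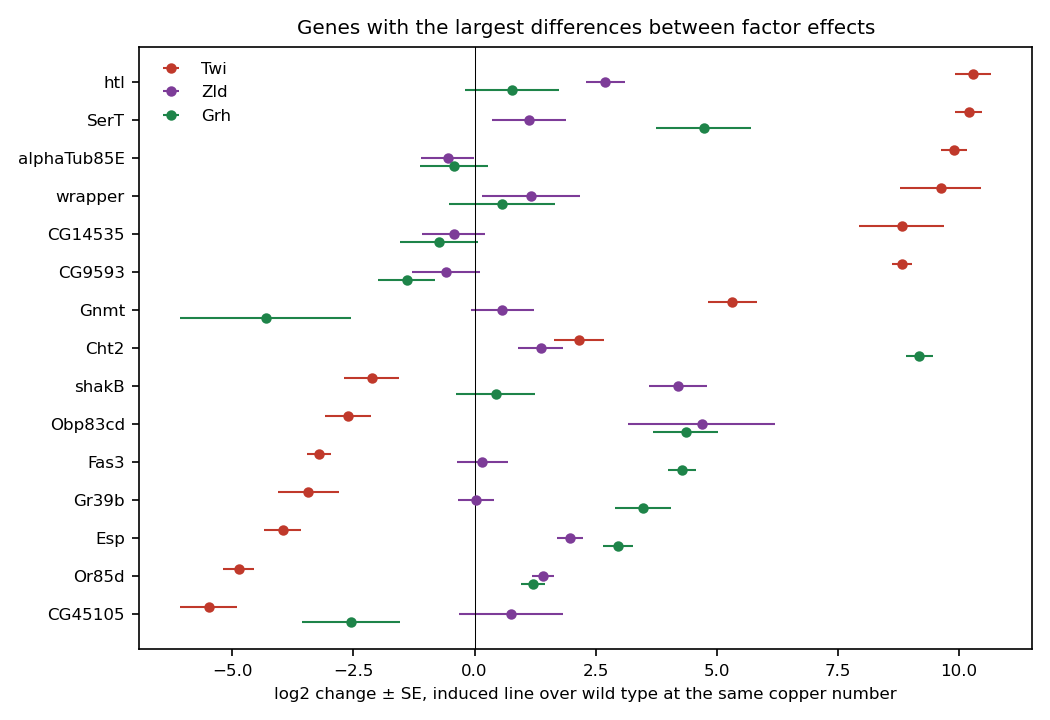
Log2 effect with SE of each induced line over wild type at the same printed copper number, from the fit on all 18 libraries, for the 15 genes chosen for the largest differences between factor effects. Red is Twi, purple Zld and green Grh; alphaTub85E stands at 9.90 for Twi and near 0 for the others, and Cht2 at 9.18 for Grh and 2.15 for Twi.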

How the data were processed

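The authors deposited whole-number counts of reads per gene, 1 table per factor, without normalizing them. The submitters' processing notes name the dm6 genome, HISAT2 2.1.0 and featureCounts from Subread 2.0; the annotation release and the strand setting are not given in the sources used here. The deposited gene length, in the unit other than counts, equals the summed exon length of the Ensembl BDGP6 annotation in 99.89% of genes. From the counts, edgeR 4.0.16 (R 4.3.3; filterByExpr and TMM; two-sided quasi-likelihood F test with the robust option; Benjamini-Hochberg over 8909 genes) was fitted on 6 libraries: untreated wild type beside both groups at 40 µM, with 3 residual degrees of freedom. DESeq2 1.42.0 was an alternative. Differences between factor effects used 18 libraries, with 9 residual degrees of freedom. SE is the absolute log2 change over the square root of F. An exact permutation test of 2 against 2 libraries cannot go below p = 0.333, so none is given. The procedure was tested on simulated data.

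Named genes are twi, the 15 largest increases and decreases among called genes with separated groups and a mean of at least 1 CPM, the 5 largest TPM rises and falls of at least 2-fold, the 5 largest differences in each direction from each other factor, and the members of 33 lists. Members and lists were chosen with earlier results of these data known. A planned search of promoters for E-box letters was not made, since no genome sequence was used here.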

Additional observations from a re-analysis of the deposited data

Results flagged for a closer look

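For each gene below, the Twi effect differed from the effect of another factor by the test of the difference itself on all 18 libraries, with Benjamini-Hochberg adjustment; the genes are the 5 with the largest differences in each direction. Against Zld, the difference (Twi minus Zld, log2) was 10.45 for alphaTub85E, 9.41 for CG9593, 9.24 for CG14535, 9.09 for SerT and 8.45 for wrapper. In the other direction it was -7.31 for Obp83cd, -6.33 for shakB, -6.29 for Or85d, -6.25 for CG45105 and -5.93 for Esp.

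Against Grh, the difference (Twi minus Grh, log2) was 10.33 for alphaTub85E, 10.23 for CG9593, 9.63 for Gnmt, 9.55 for CG14535 and 9.52 for htl. In the other direction it was -7.50 for Fas3, -7.03 for Cht2, -6.97 for Obp83cd, -6.93 for Esp and -6.91 for Gr39b. Cht2, a chitinase gene, had effects of 2.15 ± 0.51 (SE) with Twi and 9.18 ± 0.28 with Grh in that fit, at 381 ± 65.4 CPM (SD, n = 2) in the induced Grh line. Wild type at 40 µM carried no read of wrapper and CG14535, and the induced Grh line none of Gnmt. Wild type at 1000 µM carried no read of Obp83cd, which enters its difference from Zld. The sizes of those fitted differences depend on edgeR's prior count and are no bounds. Obp83cd, shakB, Or85d, CG45105, Fas3 and Gr39b stayed at or below 2.23 CPM in both Twi libraries, and the first 2 and Fas3 changed sign against untreated wild type.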

How the results depend on the processing

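With untreated wild type as the control, 2254 genes were higher and 2053 lower, 1122 and 417 of them by at least 2-fold. Fitting all 18 libraries gave 1000 higher and 945 lower. Fitting the 4 libraries alone left 162 lower, dropping the low-count filter gave 643 lower, and a replicate block gave 621 lower and 783 higher. Leaving out 1 library at a time gave 295 to 710 higher, 129 to 567 lower, 218 to 442 higher and 75 to 148 lower by at least 2-fold, 1304 to 2804 differences from Zld and 3042 to 4176 from Grh. The cause of these moves was not tested. Settings with fewer or more libraries also differ in their degrees of freedom, and that part was not tested either. The 2 same-numbered libraries of the Twi line and wild type at 40 µM deviated together (r = 0.577), but the labels do not pair them; every one of the 137 named calls held under the block. Of those calls RLE factors kept 137, library size alone 136, the stricter filter 136, no filter 127 and DESeq2 133, and single removals kept 87 to 131.

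The named genes that changed sign did so with untreated wild type as the control, with log2 changes of 1.83 for Fas3, 1.37 for Msp300, 1.99 for Obp83cd, 1.39 for PGRP-SA, 0.024 for Sur, 1.76 for aos, 0.40 for crb, 0.031 for moody, -0.74 for rols, 0.76 for shakB, 0.049 for spz and 0.14 for vari.

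Depth limits what is said of genes near 3 reads per library, such as sna, Mhc and the wild type level of most large increases.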

Other observations

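Other gene groups held scattered changes in the Twi line, to be read beside the 6.25% higher and 4.27% lower over all genes tested. Among germline and ovarian genes 4 of 11 tested (36.4%) were higher and none was lower: AGO3, a piRNA-pathway Argonaute, stood at 77.7 and 81.7 CPM against 57.5 and 51.1 CPM in wild type at 40 µM and 6.86 and 7.32 CPM in untreated wild type, and the gap junction gene zpg at 1.92 and 1.34 CPM against 0.14 and 0.0495 CPM. AGO3 lost its call without either Twi library and zpg without replicate 1 of the Twi line. Of 9 fat body and lipid genes the 1 that rose was Fbp2, at 3.69 and 1.85 CPM against 0.035 and 0.0989 CPM. Of 11 metal response genes 2 zinc transporter genes were higher (18.2%), ZnT63C (283 and 302 CPM against 175 and 188 CPM) and ZnT77C, whose call was lost without replicate 1 of the Twi line or either untreated library. The Twi level of ZnT77C, 16.6 and 13.1 CPM, lay within the wild type range, with 15.1 and 18 CPM in wild type at 1000 µM. Of 24 oxidative stress and glutathione genes 2 rose (GstE1 and GstS1; 8.33%) and 1 fell (4.17%), the catalase gene Cat, which kept its call in 2 of 6 removals.

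Among 7 lamellocyte and crystal cell genes the kinase gene msn rose from 589 and 546 CPM to 856 and 848 CPM, while lz and atilla had at most 1 read in any library of either group. Of 13 epithelium and cuticle genes 1 was higher (7.69%) and 3 lower (23.1%), the 3 being the apical polarity genes baz, crb and sdt, each with a call that held in 2 of 6 removals. By chromosome arm, the share of tested genes called higher ran from 5.48% on 2L to 7.57% on 3L, with 9 of 85 (10.6%) on chromosome 4; the share called lower ran from 3.04% on 3R to 6.61% on 2L among the major arms.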
